A study of Mus musculus with 6 samples.

Results

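Genes of the endoplasmic reticulum (ER) stress, integrated stress and heat shock responses were followed in mouse myeloid-derived suppressor cells (MDSCs) given mitochondrial DNA (mtDNA). The set holds 37 genes out of the 55359 rows of the count table, taken by matching each row's Ensembl ID to a gene symbol. It was divided by textbook regulator into 17 genes of the ATF6/XBP1 group, 11 of the ATF4 group and 9 of the HSF1 group. Such cells are immature granulocytes and monocytes that dampen T cell activity. Bone marrow of C57BL/6 mice was cultured for 4 days with GM-CSF and IL-6 at 40 ng/ml each, and the polymorphonuclear fraction was taken with a commercial isolation kit. The mtDNA group (3 libraries) was then transfected with 250 ng/ml mtDNA carried by the lipid reagent Lipofectamine, and the blank group (3 libraries) was left without mtDNA; RNA was taken after 12 h in both. Both groups share the strain, the cytokines and the isolation. Whether the lipid reagent was also added to blank cells is not stated, and there was no transfection with a different DNA, so the effects of mtDNA, of any DNA and of the reagent cannot be told apart. Nothing in the labels places the libraries in separate mice or cultures, so p-values reflect the variation among these 6 libraries alone, and that may be technical.

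When unfolded proteins build up in the ER, the membrane sensors PERK, IRE1 (encoded by Ern1) and ATF6 start the unfolded protein response. ATF6 and the spliced form of XBP1 induce ER chaperones, disulfide isomerases and degradation factors. PERK and other kinases phosphorylate the initiation factor eIF2alpha, which slows translation and favours production of ATF4, a factor for amino acid synthesis genes and for the pro-apoptotic factor CHOP (Ddit3). HSF1 answers unfolded protein in the cytosol and nucleus with cytosolic chaperones of the Hsp70, Hsp90, Hsp110 and Hsp40 families. Splicing of Xbp1, cleavage of ATF6 and phosphorylation of eIF2alpha are not visible in counts per gene.

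The DNA letters that these factors are known to bind were looked for in RefSeq promoter windows of build GRCm38.p6, running from 250 bases before to 50 bases after a gene's start, on both strands. At least 1 window was found for 33 of the 37 genes, and Atf6, Manf, Hsp90aa1 and Hspa8 had none in the table. The groups were made from textbook targets of these factors. A high share of a factor's own letters in its group is therefore built in and is not a result of these data. The ER stress element (ERSE), CCAAT and CCACG with 9 bases between them, is the classical element of ATF6 together with NF-Y. It stood in 7 of the 15 ATF6/XBP1 genes with a window, in 0 of 11 ATF4 genes, in 0 of 7 HSF1 genes and in 37 of 27025 genes overall (0.137%). These matches are shown because they fall in the group with the most calls, with the element in capitals and 8 bases on each side, 5′ to 3′ on the strand named.
Hspa5 (chr2:34772017-34772051, plus strand): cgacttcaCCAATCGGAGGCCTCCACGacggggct
Calr (chr8:84847067-84847101, plus strand): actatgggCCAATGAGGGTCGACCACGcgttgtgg
Hsp90b1 (chr10:86705630-86705664, minus strand): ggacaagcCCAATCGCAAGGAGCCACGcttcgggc
Hsp90b1 (chr10:86705525-86705559, plus strand): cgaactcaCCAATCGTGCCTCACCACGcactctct
Canx (chr11:50325792-50325826, minus strand): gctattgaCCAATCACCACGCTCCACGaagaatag
Pdia6 (chr12:17266483-17266517, plus strand): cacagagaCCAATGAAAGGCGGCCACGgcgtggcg
Dnajc3 (chr14:118937819-118937853, plus strand): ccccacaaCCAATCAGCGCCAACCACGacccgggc
Creld2 (chr15:88819512-88819546, minus strand): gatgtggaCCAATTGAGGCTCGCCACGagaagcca

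With up to 1 mismatch to the ERSE letters, 10 of the 15 ATF6/XBP1 genes matched, Herpud1, Pdia3 and Pdia4 being the additions, as did 1 of 11 ATF4 genes (Ddit3), 0 of 7 HSF1 genes and 1.72% of all genes. The whole window of Hspa5, the gene with the firmest change, is printed from chr2:34771840-34772139 on the plus strand, with the ERSE (bases -65 to -47 from the start) and the UPRE core TGACGTG (bases -157 to -151) in capitals. The UPRE core, an XBP1 and ATF6 site, was found in no other gene of the set and in 2.22% of all genes.
Hspa5 promoter: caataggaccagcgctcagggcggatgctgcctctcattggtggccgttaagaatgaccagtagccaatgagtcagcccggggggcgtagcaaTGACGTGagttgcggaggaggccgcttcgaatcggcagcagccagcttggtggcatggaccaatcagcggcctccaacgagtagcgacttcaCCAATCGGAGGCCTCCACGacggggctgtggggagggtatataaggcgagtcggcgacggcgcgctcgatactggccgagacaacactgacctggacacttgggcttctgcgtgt

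The elements of the other factors were found in fewer genes. The C/EBP-ATF response element (CARE), bound by ATF4 with C/EBP factors and searched as TGATG and AA with 1 base between them, was found in 3 of 11 ATF4 genes, in Herpud1 and in 4.51% of all genes. The heat shock element (HSE), searched as GAA, TTC and GAA with 2 bases between neighbours, was found in 3 of 7 HSF1 genes and in 0.662% of all genes. Herpud1 alone of the set held the second form of the ERSE, ATTGG and CCACG with 1 base between them. The interferon-stimulated response element core, GAAA repeated after a gap of 2 bases, was found in Ppp1r15a and in 3.99% of all genes. The ERSE and ERSE-II letters overlap in part, and so may the HSE and the interferon core. One match per gene is shown, since these are the genes whose values are set against the ERSE genes below; Hspd1 and Hspe1 lie head to head and share theirs.
Asns, CARE (chr6:7693217-7693240, minus strand): cagccacaTGATGAAActtcccgc
Chac1, CARE (chr2:119351041-119351064, minus strand): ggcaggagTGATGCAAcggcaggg
Trib3, CARE (chr2:152344031-152344054, plus strand): cgcccggcTGATGTAAacctgagc
Herpud1, CARE (chr8:94386309-94386332, minus strand): gtgcgggcTGATGCAAcccgccgt
Herpud1, ERSE-II (chr8:94386369-94386395, plus strand): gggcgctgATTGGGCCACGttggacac
Hspd1 and Hspe1, HSE (chr1:55088056-55088084, plus strand): ccgttctaGAACCTTCCGGAAggccccgc
Hsph1, HSE (chr5:149636280-149636308, plus strand): actgaggaGAACTTTCCAGAAtctgcagc

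**Figure D1:**
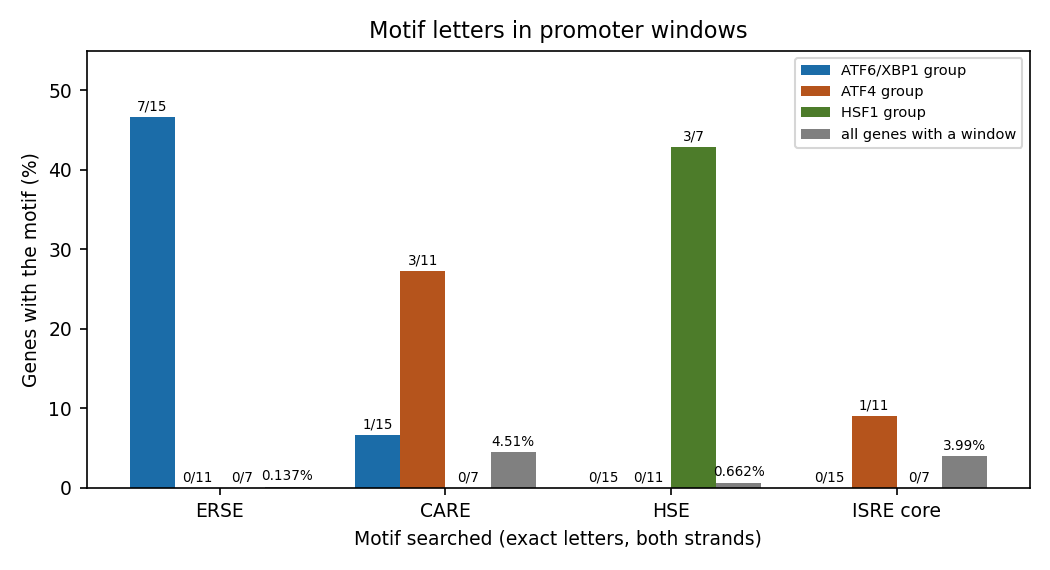
Share of genes (%, vertical axis) whose promoter window holds the exact letters of the ERSE, CARE, HSE or interferon-stimulated response element (ISRE) core, in the ATF6/XBP1, ATF4 and HSF1 groups and in all genes with a window; numbers over the bars give genes with the motif over genes with a window, or the percentage for all genes. The ERSE bar stands over the ATF6/XBP1 group (7 of 15) beside 0.137% of all genes, the HSE bar over the HSF1 group (3 of 7), and the CARE bars over the ATF4 group (3 of 11) and 1 ATF6/XBP1 gene. The groups were made from textbook targets, so a high bar for a group's own factor is built in.

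Library totals ran from 4018360 to 4911103 counts, so 1 read was worth 0.204 to 0.249 CPM (counts relative to library size). The first principal component, 68.1% of the variance, separated the groups, and the second, 8.97%, set mtDNA 1 apart from the other mtDNA libraries. Of the neutrophil genes, S100a8, S100a9, Ngp, Mpo, Ltf and Csf3r had at least 274 CPM in every library, and Elane, Cxcr2 and Camp 23.8 to 73.6 CPM. Ly6g, the defining surface marker of polymorphonuclear MDSCs, had 4.9 to 7.1 CPM in mtDNA cells and 4.2 to 6.0 CPM in blank cells. The dendritic markers H2-Aa and Itgax had 1245 to 1503 and 422 to 432 CPM over the 6 libraries, and the other dendritic markers at most 10.5 CPM. Of 6 monocyte and macrophage markers 3 were higher in mtDNA cells (Ly6c2, Csf1r and Ccr2). Over all tested genes 11.9% were, and 27.4% of those with a mean of at least 100 CPM. Csf1r and Ccr2 only just passed (edgeR adjusted p of 0.0442 and 0.0493), and DESeq2 called 2 of the 6. The 6 together summed to 3723 to 3847 CPM in mtDNA cells and 3091 to 3152 CPM in blank cells. Among markers of other cell types, Ngp (neutrophil), H2-Aa (dendritic) and Mcpt8 (basophil and mast) were higher and Kit (basophil and mast) was lower. The summed CPM of plasma and B cell markers, plasma cells being rich in ER, was 85.5 to 105 in mtDNA cells and 84.4 to 101 in blank cells. All 8 markers had at least 1 read, but Jchain had 1.00 to 3.53 CPM and Mzb1 0 to 0.24 CPM over the 6 libraries. Ighm, with 45.5 to 57.0 CPM, gave much of the sum. The part that a shift in cell types has in the results was not tested, and in bulk RNA fewer cells of a type and less RNA per cell cannot be told apart.

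In mtDNA cells 13 of the 35 tested genes of the set were higher than in blank cells, and 10 of the 13 were ATF6/XBP1 genes (edgeR quasi-likelihood test, Benjamini-Hochberg adjusted p under 0.05 over 11190 genes). The background is 1327 of the 11190 genes higher, or 11.9%, and 669 lower, or 5.98%. In the set 0 genes were lower; at an unadjusted p under 0.05 Atf5, Ddit4 and Phgdh were, and DESeq2 and limma-voom also called 0 lower. By group, 10 of 17 ATF6/XBP1 genes rose, 1 of 11 ATF4 genes and 2 of 7 tested HSF1 genes, and no test of the difference between the groups was made. The median log2 fold change, mtDNA over blank, was 0.19 in the ATF6/XBP1 group, 0.12 in the ATF4 group and 0.022 in the HSF1 group, against -0.013 over all tested genes. The changes were small, from 13.3% for Calr to 45.3% for Ddit3 among the genes that rose.

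The number of rises depended on how the libraries were scaled. The values above use TMM factors, and with library totals alone the median of all genes was -0.13. The ATF6/XBP1 median lay 0.20 above that of all genes under both scalings. A change of scaling shifts all genes by nearly the same amount, so this gap could hardly move and is no check. Of the ATF6/XBP1 genes, 3 (Hspa5, Manf and Pdia4) passed under library totals and 5 under upper-quartile factors. Ddit3 passed under both of these scalings, and Hspa8 and Bag3 under neither. Both called Atf5, Ddit4, Phgdh, Xbp1 and Hspd1 lower, and library totals called Hsp90aa1 lower too. Over all genes the calls were 861 higher and 2356 lower under library totals, and 970 higher and 1504 lower under upper-quartile factors. None of the 13 genes changed sign under any of the 16 alternatives tried, and Hspa5 alone was called in all of them.

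**Figure D2:**
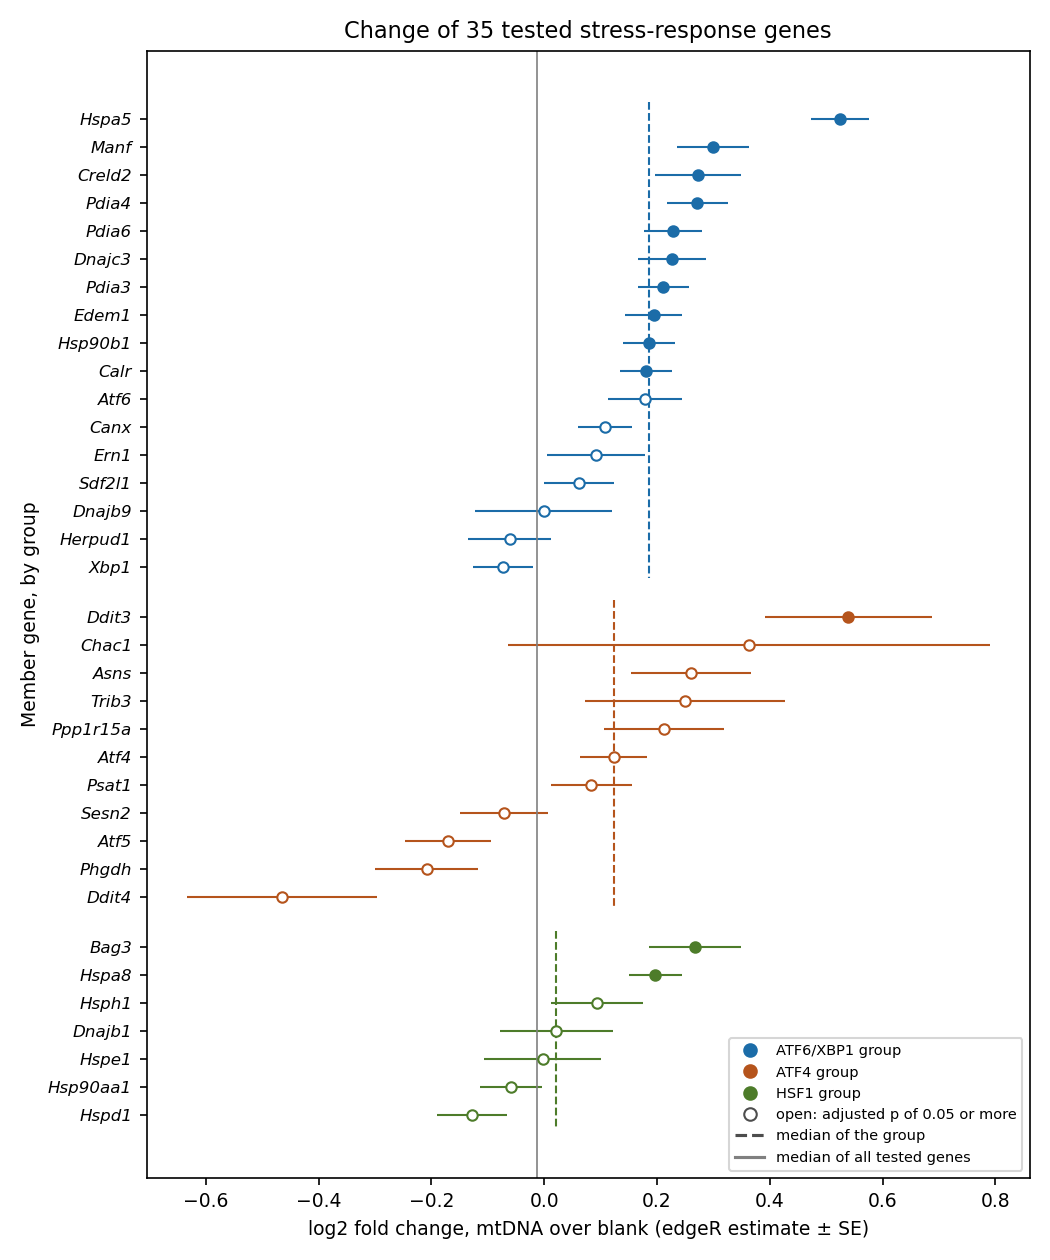
log2 fold change, mtDNA over blank (horizontal axis), of the 35 tested genes by group, as the edgeR estimate with its standard error; filled points have an adjusted p under 0.05, dashed lines are group medians and the grey line the median of all tested genes. Of the 17 ATF6/XBP1 points 14 lie above 0, from Hspa5 at 0.52 down to Xbp1 at -0.073, while the ATF4 genes spread from Ddit3 at 0.54 to Ddit4 at -0.46.

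The ATF6/XBP1 genes that rose were ER chaperones, disulfide isomerases and factors that handle misfolded glycoprotein. Hspa5 encodes BiP, the Hsp70 chaperone of the ER and the protein that holds the stress sensors inactive. It had 1212, 1171 and 1271 CPM in the 3 mtDNA libraries, against 860.3, 787 and 895 CPM in the 3 blank libraries. The groups did not overlap, and the lowest mtDNA library lay far above the highest blank library. The log2 fold change was 0.52 ± 0.052 (SE), or 43.8% higher (edgeR adjusted p = 6.65e-08), and it stayed between 0.47 and 0.57 with any 1 library left out.

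Manf, a small ER protein that is also secreted under ER stress, had 159, 154 and 143 CPM in mtDNA cells, against 115, 129.8 and 125 CPM in blank cells. Every mtDNA library was above every blank library, and the log2 fold change was 0.30 ± 0.064 (edgeR adjusted p = 0.00184). Its exons overlap those of Rbm15b on the same strand and of Dcaf1 on the other, which had 1073 and 655 reads over all libraries against 3680 for Manf. Creld2, an ER protein induced by ER stress, had 74.9, 81.2 and 70.1 CPM in mtDNA cells and 61.0, 63.9 and 62.1 CPM in blank cells (log2 0.27 ± 0.076, edgeR adjusted p = 0.014). The groups did not overlap, but the call was lost without mtDNA 2 (adjusted p = 0.105, edgeR) and by DESeq2.

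The 3 disulfide isomerases of the set, enzymes that form and rearrange disulfide bonds in folding proteins, all rose. Pdia4 had 479.6, 426 and 424 CPM in mtDNA cells, against 375, 359 and 367 CPM in blank cells (log2 0.27 ± 0.054, edgeR adjusted p = 0.000928). mtDNA 1 was the highest library, and the other mtDNA libraries still lay above all blank libraries. Pdia6 averaged 449 ± 22.0 CPM in mtDNA cells and 383 ± 9.83 CPM in blank cells (SD, n = 3 each), a log2 fold change of 0.23 ± 0.051 (edgeR adjusted p = 0.00284). Pdia3, which works with the lectin chaperones on glycoproteins, averaged 717 ± 19.0 CPM in mtDNA cells and 619 ± 9.02 CPM in blank cells (SD, n = 3 each), a log2 fold change of 0.21 ± 0.046 (edgeR adjusted p = 0.00206). None of the 3 lost its call when a single library was left out.

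Calr encodes calreticulin, the soluble lectin chaperone, and was the most abundant RNA of the set per length (679 CPM per kb of transcript, mean of 6 libraries). It had 1659, 1549.7 and 1516 CPM in mtDNA cells, against 1365, 1377 and 1429 CPM in blank cells. The groups did not overlap, though mtDNA 3 and blank 3 lay close together, and the log2 fold change was 0.18 ± 0.046 (edgeR adjusted p = 0.00816). Canx, its membrane-bound partner calnexin, averaged 531 ± 17.6 CPM in mtDNA cells and 493 ± 9.36 CPM in blank cells (SD, n = 3 each). Its libraries did not overlap either, but the log2 fold change of 0.11 ± 0.048 did not pass (edgeR adjusted p = 0.13), and it was -0.010 under library totals.

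Hsp90b1, which encodes GRP94, the Hsp90 of the ER, had 869, 869 and 895 CPM in mtDNA cells, against 790.1, 740.2 and 785 CPM in blank cells. The mtDNA libraries lay within a narrow band above all blank libraries (log2 0.19 ± 0.046, edgeR adjusted p = 0.00624). Dnajc3, a BiP cochaperone that also inhibits PERK, had 137, 138 and 143 CPM in mtDNA cells and 121, 114 and 123 CPM in blank cells (log2 0.23 ± 0.060, edgeR adjusted p = 0.0101). Its groups did not overlap, and the call was lost without blank 2 (adjusted p = 0.0567, edgeR) and by DESeq2. Edem1, which hands misfolded glycoproteins over for degradation, had 483, 486 and 456 CPM in mtDNA cells and 432, 398 and 417 CPM in blank cells (log2 0.19 ± 0.051, edgeR adjusted p = 0.00964). It too did not overlap, and its call was lost without mtDNA 2 or without blank 2 (adjusted p of at most 0.0548, edgeR).

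**Figure D3:**
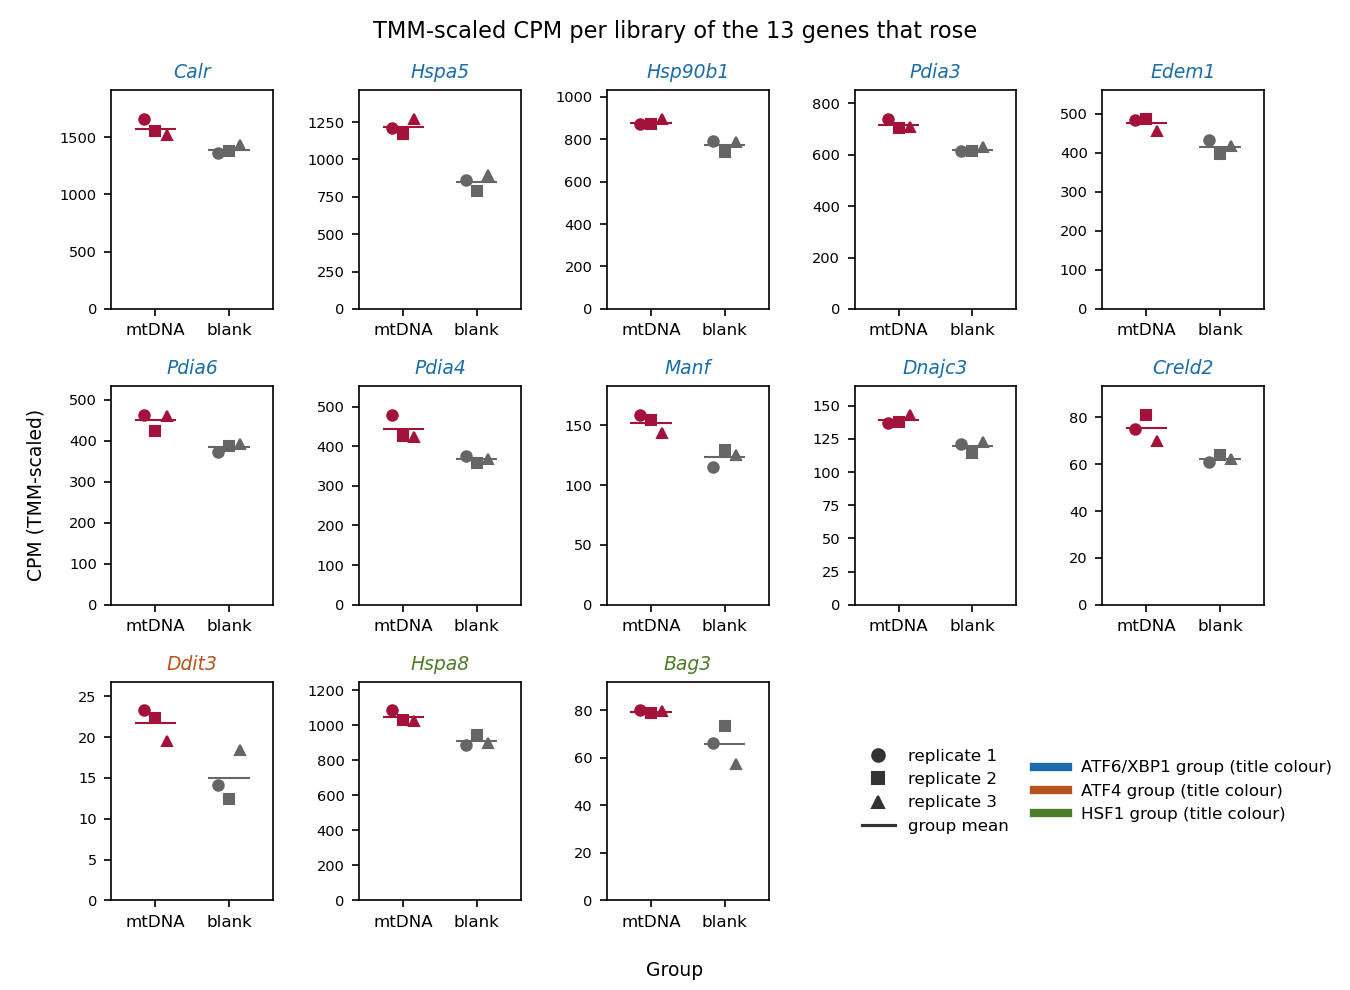
TMM-scaled CPM (vertical axes, from 0) of the 13 genes that rose, 1 panel per gene, with the 3 mtDNA libraries on the left and the 3 blank libraries on the right; marker shapes give the replicate, horizontal lines the group means, and title colours the group of genes. In each panel all mtDNA points lie above all blank points, widely for Hspa5 and narrowly for Ddit3 and Calr.

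Xbp1 and the sensor genes Atf6 and Ern1 did not pass the test. Xbp1 had 218, 213 and 204 CPM in mtDNA cells, against 224, 219 and 225 CPM in blank cells. All mtDNA libraries were just below all blank libraries, with a log2 fold change of -0.073 ± 0.054 (edgeR adjusted p = 0.394). Atf6, the sensor that is itself cleaved into a transcription factor, had 97.1, 108 and 106 CPM in mtDNA cells and 94.6, 89.6 and 91.2 CPM in blank cells (log2 0.18 ± 0.066, edgeR adjusted p = 0.067). Its groups did not overlap, and it passed only without mtDNA 1 (edgeR adjusted p = 0.0381). Ern1, which encodes IRE1, averaged 54.1 ± 3.67 CPM in mtDNA cells and 50.8 ± 4.06 CPM in blank cells (SD, n = 3 each), with overlapping libraries.

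Dnajb9, Sdf2l1 and Herpud1, well-known targets of the unfolded protein response, also stayed within the spread. Dnajb9, a BiP cochaperone induced by XBP1, had 37.1, 29.3 and 30.3 CPM in mtDNA cells and 32.3, 36.5 and 26.7 CPM in blank cells, a log2 fold change of -0.0012 ± 0.12. Sdf2l1, a partner of ER Hsp40 proteins, averaged 138 ± 7.63 CPM in mtDNA cells and 132 ± 6.33 CPM in blank cells (SD, n = 3 each). Herpud1, a membrane protein of ER-associated degradation that responds to ATF6 and ATF4, averaged 66.8 ± 3.95 CPM in mtDNA cells and 69.5 ± 2.36 CPM in blank cells (SD, n = 3 each). The libraries of all 3 genes overlapped between groups.

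Within the ATF6/XBP1 group 12 of 17 genes had all mtDNA libraries above all blank libraries, where 17.9% of all tested genes did, and 1 (Xbp1) had all below, where 15.6% did. The summed level of the 17 genes was 7417, 7130 and 7234 CPM in mtDNA cells, against 6213, 6049 and 6309 CPM in blank cells. Without Hspa5 the sum was 5959 to 6205 CPM in mtDNA cells and 5262 to 5415 CPM in blank cells. As a share of all counts, with no scaling factor, the sum was 0.687% to 0.700% in mtDNA cells and 0.629% to 0.658% in blank cells, so the groups were separate on either scale. Without mtDNA 1, the library set apart on the second component, 11 genes of the group passed, Atf6 being added.

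Exact ERSE letters were found in 12 tested genes, 7 of the set and 5 outside it. Of the 7 in the set 6 rose in mtDNA cells (Hspa5, Calr, Creld2, Dnajc3, Hsp90b1 and Pdia6). These are calls already counted above, so they add no new ones. Of the 5 outside the set 1 rose, Syvn1, where 11.9% of all tested genes, with or without a window, did. None of the 12 was lower by edgeR, and Adcy3 was at an unadjusted p under 0.05. Syvn1, which encodes the ubiquitin ligase HRD1 of ER-associated degradation, had 107, 103 and 96.5 CPM in mtDNA cells and 76.8, 73.5 and 76.2 CPM in blank cells (log2 0.44 ± 0.068, edgeR adjusted p = 4.91e-05). Canx, Adcy3, Alg12, Hnrnpa3 and Pan2 hold the same letters and did not pass. Of the ATF6/XBP1 genes that rose, Pdia3, Pdia4 and Edem1 have a window without the exact letters.

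The ATF4 group did not move together. Ddit3 encodes CHOP, the factor linked to cell death under lasting stress, and was its only gene to pass. It had 23.3, 22.3 and 19.5 CPM in mtDNA cells, against 14.1, 12.4 and 18.4 CPM in blank cells. The groups did not overlap, but mtDNA 3 lay barely above blank 3, and the log2 fold change of 0.54 ± 0.15 (edgeR adjusted p = 0.0132) had a far wider error than that of Hspa5. DESeq2 did not call it (adjusted p = 0.124), and edgeR lost the call without mtDNA 1 or without blank 2 (adjusted p of at most 0.0913). Ddit3 shares exon positions with Mars on the other strand, which had 1523 reads over all libraries against 486 for Ddit3, and the strand setting of the counting is not given in the sources used here.

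Atf4 itself had 221, 194 and 206 CPM in mtDNA cells, against 197, 182 and 191 CPM in blank cells. These overlap, with a log2 fold change of 0.12 ± 0.060 (edgeR adjusted p = 0.173). Asns, which makes asparagine and carries the CARE letters shown above, had 28.6, 28.7 and 29.4 CPM in mtDNA cells and 24.2, 23.0 and 25.3 CPM in blank cells. Its groups did not overlap, and the log2 fold change of 0.26 ± 0.11 did not pass (edgeR adjusted p = 0.101). Trib3, a pseudokinase, and Chac1, which degrades glutathione, hold CARE letters too and had overlapping libraries at averages of 11.5 ± 0.441 and 2.72 ± 0.906 CPM in mtDNA cells and 9.56 ± 1.90 and 2.06 ± 1.53 CPM in blank cells (SD, n = 3 each). Ppp1r15a, which encodes GADD34 and reverses eIF2alpha phosphorylation, averaged 44.5 ± 6.34 CPM in mtDNA cells and 38.3 ± 3.36 CPM in blank cells (SD, n = 3 each) and overlapped as well.

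The remaining ATF4 genes passed in neither direction. Ddit4, an inhibitor of mTORC1, had 16.6, 14.8 and 9.53 CPM in mtDNA cells, against 16.5, 19.2 and 20.1 CPM in blank cells. mtDNA 3 was the lowest and mtDNA 1 lay level with blank 1, so the groups overlapped, and the log2 fold change was -0.46 ± 0.17 (edgeR adjusted p = 0.0623). Ddit4 passed as lower under 5 of the 16 alternatives, among them library totals and omission of mtDNA 1. Phgdh, the first enzyme of serine synthesis, averaged 35.5 ± 0.429 CPM in mtDNA cells and 41.1 ± 1.63 CPM in blank cells (SD, n = 3 each), and Psat1, the next enzyme, averaged 69.3 ± 2.40 CPM in mtDNA cells and 65.4 ± 0.820 CPM in blank cells (SD, n = 3 each). All mtDNA libraries lay below all blank libraries for Phgdh (log2 -0.21 ± 0.091, edgeR adjusted p = 0.127) and above them for Psat1 (log2 0.084 ± 0.071, edgeR adjusted p = 0.473), so these neighbours in 1 pathway pointed opposite ways, neither passing; Psat1 was at -0.035 under library totals.

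Phgdh shares 47.4% of its 75-base windows with other genes, so its count is uncertain. Atf5, a factor whose translation also rises when eIF2alpha is phosphorylated, averaged 72.3 ± 5.29 CPM in mtDNA cells and 81.1 ± 4.94 CPM in blank cells (SD, n = 3 each), with all mtDNA libraries below all blank libraries (log2 -0.17 ± 0.076, edgeR adjusted p = 0.131). Its exons overlap those of Nup62 and Il4i1 on the other strand. Sesn2, another inhibitor of mTORC1, averaged 61.7 ± 3.95 CPM in mtDNA cells and 64.8 ± 3.29 CPM in blank cells (SD, n = 3 each). The 11 genes summed to 546 to 598 CPM in mtDNA cells and 543 to 554 CPM in blank cells, and the ranges overlapped under TMM scaling. As a share of all counts, with no scaling factor, the sum was 0.05259% to 0.05646% in mtDNA cells and 0.05648% to 0.05776% in blank cells. On that scale all mtDNA libraries lay below all blank libraries, the highest mtDNA one only just.

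Of the HSF1 group, Hspa8 and Bag3 rose. Hspa8 encodes Hsc70, the constitutive cytosolic Hsp70, and had 1085, 1030.1 and 1023 CPM in mtDNA cells, against 889, 947 and 901 CPM in blank cells. The groups did not overlap (log2 0.20 ± 0.046, edgeR adjusted p = 0.00402), but 40.9% of the 75-base windows of Hspa8 occur in other genes, chiefly the pseudogene Gm15459, so its count is uncertain. Bag3, a cochaperone that steers Hsp70 clients to autophagy, had 80.0, 78.8 and 79.6 CPM in mtDNA cells and 66.2, 73.5 and 57.3 CPM in blank cells (log2 0.27 ± 0.081, edgeR adjusted p = 0.0251). Its mtDNA libraries were nearly level and its blank libraries spread widely below them. The Bag3 call was lost in 9 of the 16 alternatives, including each omission except that of blank 2.

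The inducible Hsp70 genes, the most strongly heat-inducible RNAs in many cells, were close to the detection limit. Hspa1a had 3, 3 and 4 reads in mtDNA libraries and 6, 3 and 1 reads in blank libraries, and Hspa1b had 5, 7 and 3 reads in mtDNA libraries and 10, 3 and 0 reads in blank libraries. Neither passed the filter on low counts, and the pair shares 52.7% to 55.8% of its windows, so their counts are uncertain, and small differences were not detectable in so few reads. Hsph1 (Hsp110) averaged 54.3 ± 3.30 CPM in mtDNA cells and 50.9 ± 0.950 CPM in blank cells (SD, n = 3 each). Dnajb1 (Hsp40) averaged 46.6 ± 6.52 CPM in mtDNA cells and 45.6 ± 2.39 CPM in blank cells (SD, n = 3 each). Hsp90aa1, the inducible cytosolic Hsp90, averaged 184 ± 3.70 CPM in mtDNA cells and 192 ± 6.86 CPM in blank cells (SD, n = 3 each), with 53.1% of its windows shared.

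The mitochondrial chaperonin pair, Hspd1 (Hsp60) and Hspe1 (Hsp10), has the shared HSE promoter shown above. Hspd1 had 116, 124 and 131 CPM in mtDNA cells, against 131, 138 and 138 CPM in blank cells. All mtDNA libraries were below all blank libraries, the highest mtDNA one only just, with a log2 fold change of -0.13 ± 0.062 (edgeR adjusted p = 0.172). Hspe1 averaged 33.7 ± 2.72 CPM in mtDNA cells and 33.7 ± 2.86 CPM in blank cells (SD, n = 3 each). None of the 3 genes with HSE letters passed the test by edgeR or at an unadjusted p under 0.05.

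**Figure D4:**
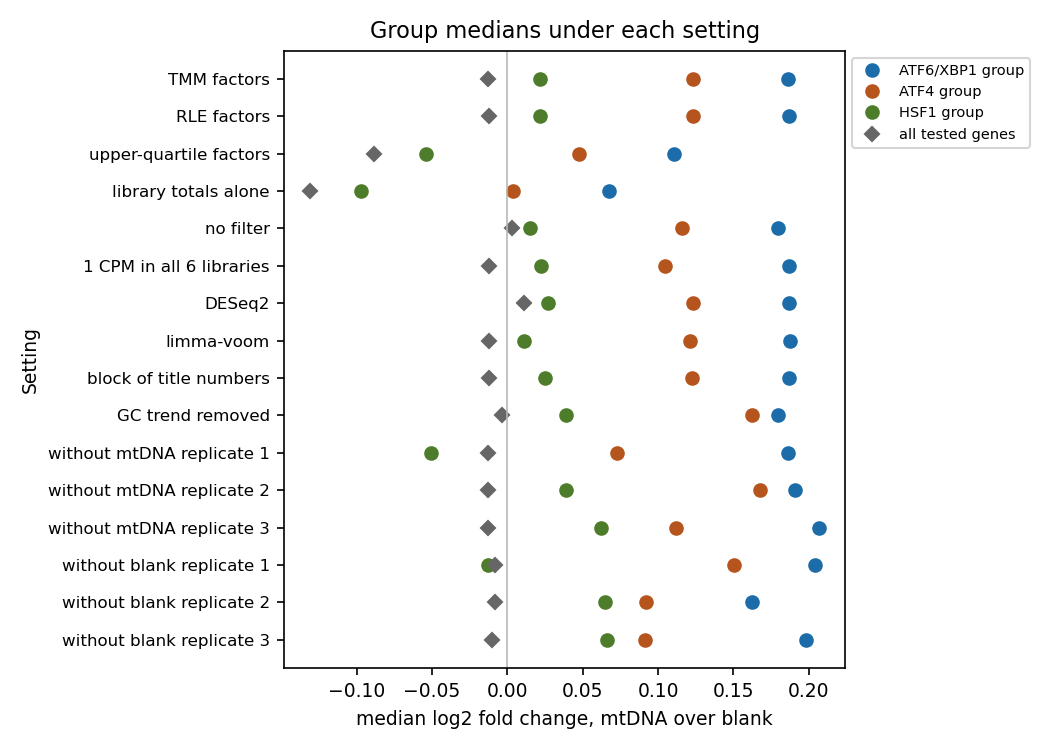
Median log2 fold change, mtDNA over blank (horizontal axis), of each group of genes (circles) and of all tested genes (diamonds) under TMM scaling and 15 alternatives (vertical axis). The ATF6/XBP1 median stays 0.17 to 0.22 above that of all genes, while the HSF1 median lies between 0.038 below and 0.077 above it. The rows for RLE factors, upper-quartile factors and library totals were bound to give nearly the TMM gaps, since scaling shifts all genes almost alike.

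Set side by side, the groups differ in abundance as well as in their calls. The median level was 217 CPM in the ATF6/XBP1 group, 38.3 CPM in the ATF4 group and 72.6 CPM among the tested HSF1 genes, and the median standard errors of log2 fold change were 0.054, 0.11 and 0.081 in that order. Of the genes with a mean of at least 100 CPM, 9 of 12 ATF6/XBP1 genes rose, 0 of 1 ATF4 genes and 1 of 3 HSF1 genes, where 27.4% of all such genes did. Under 100 CPM, 1 of 5 ATF6/XBP1 genes rose, 1 of 10 ATF4 genes and 1 of 4 HSF1 genes. Over all tested genes 1327 of 11190 rose (11.9%), 620 of them among the 2259 genes of at least 100 CPM, so the share under 100 CPM was below 11.9%. Under all alternatives that give a median, that of the ATF6/XBP1 group lay 0.17 to 0.22 above the median of all genes. That of the ATF4 group lay 0.086 to 0.18 above it. The alternatives that only rescale the libraries could hardly change these gaps, and the others refit the same libraries or part of them. The HSF1 median turned negative under library totals, upper-quartile factors and without mtDNA 1 or blank 1.

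Further genes of the same pathways came from wider lists. Of the 12 eIF2alpha kinases and regulators, Eif2ak2 and Ppp1r15b rose (16.7%, against 11.9% of all tested genes). In that list 0 were lower by edgeR (against 5.98% of all), by DESeq2, by limma-voom or at an unadjusted p under 0.05. Eif2ak2 encodes PKR, the eIF2alpha kinase that senses double-stranded RNA and is induced by interferon, and had 175, 188 and 201 CPM in mtDNA cells, against 66.6, 39.5 and 63.7 CPM in blank cells (log2 1.75 ± 0.11, edgeR adjusted p = 3.68e-11). Its change was larger than that of any gene of the set, with a wide gap between the groups. PERK (Eif2ak3), HRI (Eif2ak1) and GCN2 (Eif2ak4) had log2 fold changes of -0.078, 0.064 and -0.018 and did not pass (edgeR adjusted p of at least 0.584). Ppp1r15b, the constitutive counterpart of GADD34 in reversing eIF2alpha phosphorylation, had a log2 fold change of 0.20 ± 0.056 (edgeR adjusted p = 0.0155), a call lost in 7 of the 16 alternatives.

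Of 21 tested further ATF4 targets 4 rose (19.0%, against 11.9% of all tested genes) and 4 fell (19.0%, against 5.98% of all). Atf3, a stress-induced repressor that other pathways also induce, had 408, 362 and 381 CPM in mtDNA cells, against 247, 239 and 243 CPM in blank cells (log2 0.66 ± 0.055, edgeR adjusted p = 4.28e-09). The other rises with the smallest p were Mthfd2, a mitochondrial folate enzyme (log2 0.40 ± 0.066, edgeR adjusted p = 0.000106), and the growth factor Vegfa (log2 0.49 ± 0.097, edgeR adjusted p = 0.000847). The falls were led by the amino acid transporters Slc1a5 (log2 -0.33 ± 0.073, edgeR adjusted p = 0.00285) and Slc7a1 (log2 -0.35 ± 0.095, edgeR adjusted p = 0.0116) and by the serine enzyme Shmt2 (log2 -0.28 ± 0.089, edgeR adjusted p = 0.0356). The Slc7a1 call was lost without mtDNA 1, and the Shmt2 call in 8 of the 16 alternatives, among them 5 of the 6 omissions of a library. Rises and falls were thus equal in number here, though fewer of all tested genes fell than rose. The median log2 fold change of the list was -0.047. DESeq2 called 4 higher and 1 lower, and edgeR 1 to 3 lower with any 1 library left out.

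Of 38 tested further genes of ER folding, export and degradation 7 rose (18.4%, against 11.9% of all tested genes). By edgeR 0 fell (against 5.98% of all), with Txndc5 and Spcs3 lower at an unadjusted p under 0.05. The list's median level was 88.6 CPM, against 32.9 CPM over all tested genes, and 27.4% of all genes of at least 100 CPM rose. DESeq2 called 5 higher and 0 lower, and limma-voom 6 higher and 0 lower. Besides Syvn1, the rises with the smallest p were Tmbim6, an ER membrane inhibitor of cell death with 973, 880.1 and 887 CPM in mtDNA cells against 713, 695 and 681 CPM in blank cells (log2 0.39 ± 0.049, edgeR adjusted p = 2.96e-06), and Sec23b, a coat subunit of ER export vesicles (log2 0.31 ± 0.069, edgeR adjusted p = 0.00274). The list's median log2 fold change was 0.082, and 33 of its 38 genes had a positive one, as did 5368 of all 11190 tested genes. Of 6 transcripts known to be cut by IRE1 in other cells, 1 passed the filter on low counts: Hgsnat had a log2 fold change of -0.071 (edgeR adjusted p = 0.714).

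Of 26 tested further cytosolic chaperone genes 3 rose (11.5%, against 11.9% of all tested genes) and 3 fell (against 5.98% of all), so the rises were near the background. Dnaja1, an Hsp40, had 73.3, 66.8 and 71.8 CPM in mtDNA cells, against 53.0, 50.9 and 42.7 CPM in blank cells (log2 0.53 ± 0.085, edgeR adjusted p = 8.49e-05), and Dnajb6 (log2 0.33 ± 0.10, edgeR adjusted p = 0.0235) rose as well, a call lost in 7 of the 16 alternatives. Fkbp4, an Hsp90 cochaperone, had 42.4, 35.6 and 39.8 CPM in mtDNA cells, against 55.1, 57.5 and 53.2 CPM in blank cells (log2 -0.50 ± 0.089, edgeR adjusted p = 0.000255). The groups were well apart for both genes, in opposite directions. The chaperonin subunits Tcp1 and Cct4 fell by 0.18 each on the log2 scale (edgeR adjusted p of 0.0257 and 0.0334), but the Tcp1 call was lost in 6 of the 16 alternatives and the Cct4 call in 8, among them all 6 omissions of a library. DESeq2 called 2 of the 26 higher and 1 lower, and edgeR 1 to 3 lower with any 1 library left out. Of 8 mitochondrial proteases and chaperones 1 fell, against 5.98% of all tested genes. The gene was the matrix protease Lonp1 (log2 -0.27 ± 0.071, edgeR adjusted p = 0.00887), a call that DESeq2 did not make. In that list 0 rose by edgeR, against 11.9% of all tested genes, and 0 by DESeq2 or limma-voom. At an unadjusted p under 0.05, 1 was higher.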

How the data were processed

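The 6 libraries were made from poly(A) RNA with a directional kit and read from 1 end to 75 bases, per the labels' protocols. The authors deposited raw counts of reads for each gene, 1 column per library. The submitters' processing notes name STAR 2.7.10a, GRCm39, FastQC and DESeq2. Neither the annotation release nor the strand setting is given in the sources used here. Symbols were matched through GENCODE M21 (GRCm38), which named 52083 of 55359 rows. A second row named Ddit3 had 0 reads in every library and was left out.

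Counts were tested with edgeR 4.0.16 in R 4.3.3: default low-count filter (11190 genes kept), TMM scaling (factors of 0.947 to 1.05), a two-sided quasi-likelihood test, Benjamini-Hochberg adjustment over all kept genes, threshold 0.05. CPM values are TMM-scaled, log2 fold changes are mtDNA minus blank, and the biological coefficient of variation was 4.54%. The code was first checked on simulated counts. Levels per kb use the longest transcript. Shared sequence is the percent of a gene's 75-base windows found in transcripts of other genes, and promoter motifs were searched with Python 3.11.15 in RefSeq windows.

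All 37 genes are named whatever their result. From each wider list the rule named up to 3 risen and 3 fallen genes with the smallest p, or the one with the smallest p as a value; 1 gene that it picked is not reported here. PERK, HRI and GCN2, and the ERSE genes outside the set, were added after their values were seen, as were genes passing at an unadjusted p. The genes, lists and tests were chosen with earlier results of these data known.

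Alternatives were RLE factors, upper-quartile factors, library totals alone, omission of the filter, a floor of 1 CPM in each of the 6 libraries, limma-voom (limma 3.58.1), DESeq2 1.42.0, a test against a fold of 1.2, removal of a GC trend, neighbouring title numbers as a block, and omission of each library.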

Additional observations from a re-analysis of the deposited data

How the results depend on the processing

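Results are given under TMM scaling, against which the alternatives moved as follows. Upper-quartile factors and library totals left 6 and 4 genes of the set higher and put 5 and 6 lower, with 5 and 3 higher and 1 lower each in the ATF6/XBP1 group, 3 lower each in the ATF4 group, and 0 higher and 1 and 2 lower in the HSF1 group. Group medians of log2 fold change under these scalings were 0.11 and 0.067 (ATF6/XBP1), 0.047 and 0.0038 (ATF4) and -0.054 and -0.097 (HSF1), and over all genes 970 and 861 were higher and 1504 and 2356 lower. The test against a fold of 1.2 left 1 gene of the set (Hspa5), 0 in the ATF4 and HSF1 groups, and 590 higher and 55 lower over all genes. DESeq2 called 0 ATF4 genes, 1 HSF1 gene and 173 genes lower over all. Without the filter 1 gene, Ddit4 of the ATF4 group, was lower, and removal of the GC trend gave an ATF4 median of 0.16.

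Leaving out each library in turn gave 10 to 12 higher and 0 to 1 lower in the set, 0 to 1 higher and 0 to 1 lower in the ATF4 group, 8 to 11 higher in the ATF6/XBP1 group and 1 to 2 higher in the HSF1 group. Medians ran from 0.073 to 0.17 (ATF4), 0.16 to 0.21 (ATF6/XBP1) and -0.050 to 0.066 (HSF1), and genes lower over all from 410 (without blank 3) to 522.

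Of the 22 genes not called, 8 changed sign somewhere. Under library totals Psat1 was at -0.035, Sdf2l1 at -0.057, Ern1 at -0.027, Canx at -0.010, Hsph1 at -0.025 and Dnajb1 at -0.097, and under upper-quartile factors Sdf2l1 was at -0.014 and Dnajb1 at -0.054. Dnajb9 was at 0.0099 under DESeq2 and 0.0065 under the block, and ran from -0.11 to 0.12 with libraries left out, as Dnajb1 did from -0.052 to 0.14 and Hspe1 from -0.068 to 0.066.

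The labels pair no libraries. Libraries with neighbouring title numbers correlated only weakly, at 0.040 to 0.045, in their deviations from the group means, though each correlated best with its own number. Whether they are pairs is not known. With these numbers as a replicate block, 1387 genes were higher and 747 lower, and the calls of the set were those without it. At 4018360 to 4911103 counts a library, small differences in Hspa1a and Hspa1b were not detectable, and the log2 fold change of Chac1 had a standard error of 0.43.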
